A study of Homo sapiens with 12 samples.

Results

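10 genes of intracellular cholesterol transport were followed by their symbols in the deposited expression table: NPC1, NPC2, LIPA, STARD3, STARD4, TMEM97, OSBP, SCARB1, GRAMD1A and ORMDL1. All 10 were found among the 57152 genes with values, and all 10 were among the 13968 genes tested, whose levels averaged 1 TPM or more across the 12 libraries. The libraries fall into 4 groups of 3. They came from A549, an established human line of lung adenocarcinoma, and from a line labelled LB whose stated source is A549. LB cells received 10 µM amiodarone for 24 h plus 10 mg/ml hydroxypropyl-beta-cyclodextrin (HPbCD) from seeding, 24 h before the drug (LB amiodarone plus HPbCD), or amiodarone without HPbCD (LB amiodarone), or 0.1% DMSO as vehicle (LB DMSO). A549 cells received 0.1% DMSO (A549 DMSO). Whether the amiodarone groups also held DMSO was not given in the sources used here. How the LB line was made from A549 was not given in the sources used here. None of the 12 libraries came from cells given HPbCD without amiodarone, and amiodarone was measured in the LB line only.

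Cholesterol that enters a cell in lipoproteins reaches the lysosome as esters. The acid lipase LIPA cuts the esters, the soluble protein NPC2 takes up the freed cholesterol, and the membrane protein NPC1 exports it. STARD3 tethers late endosomes to the endoplasmic reticulum and carries sterol between them. STARD4 is a soluble sterol carrier, OSBP exchanges cholesterol for a phosphoinositide at contacts between the endoplasmic reticulum and the Golgi, and GRAMD1A moves plasma membrane cholesterol to the endoplasmic reticulum. SCARB1 takes up cholesterol from high-density lipoprotein at the cell surface, and TMEM97, the sigma-2 receptor, binds NPC1. ORMDL1 differs from the other members: it restrains serine palmitoyltransferase, the first enzyme of sphingolipid synthesis, and is not known as a sterol carrier. When sterol in the endoplasmic reticulum is low, the transcription factor SREBP2 raises genes of cholesterol synthesis and uptake. Amiodarone is a cationic amphiphilic drug that accumulates in lysosomes, and HPbCD is a ring of sugars that binds cholesterol.

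Sums of TPM lay between 999449 and 999632 per library, so read depth is unknown, and between 20966 and 22261 genes were above 0. Replicates correlated at 0.985 to 0.989 within groups across the tested genes, and libraries of different groups at 0.943 to 0.986. The summed level of 5 epithelial markers (KRT8, KRT18, KRT19, EPCAM, CDH1) was 2561 to 3223 TPM in the LB libraries and 7254 to 7791 TPM in A549 DMSO. KRT8 and KRT18 made up most of each sum. EPCAM averaged 9.46 TPM in A549 DMSO, 2.43 in LB DMSO, 1.91 in LB amiodarone and 1.64 in LB amiodarone plus HPbCD. CDH1 averaged 28.6, 16.1, 14.3 and 9.05 TPM in that order, and KRT19 233, 51.4, 102 and 116 TPM. The summed level of 4 endothelial markers stayed at or below 0.88 TPM, and PTPRC and CD3E, which define leukocytes and T cells, at or below 0.01 TPM. The leukocyte markers CD14 and ITGB2 reached 5.71 and 2.55 TPM. In the same order of groups, CD14 averaged 4.76, 2.51, 1.72 and 0.907 TPM, and ITGB2 2.22, 1.23, 1.34 and 1.54 TPM. Of 5 fibroblast markers, COL1A1 reached 9.25 TPM and LUM 6.21 TPM, and the others stayed at or below 0.66 TPM. COL1A1 averaged 4.13, 8.38, 7.49 and 3.57 TPM in that order, and LUM 0.27, 2.44, 4.55 and 3.27 TPM. The part of these markers in the results was not tested. Each level is a mean in TPM ± SD (n = 3 libraries in each group), and each difference is given in log2(TPM + 1) ± SE. Adjusted p-values are from limma over all tested genes, with a threshold of 0.05. Nothing in the labels says that replicates came from separate cultures. If they did not, the p-values reflect technical spread alone. In RNA of whole cultures, fewer cells that express a gene and less of its RNA per cell cannot be told apart.

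Amiodarone raised 6 of the 10 genes in LB cells and lowered none. The lysosomal genes NPC1, NPC2 and LIPA, the carrier STARD4, the sigma-2 receptor TMEM97 and the surface receptor SCARB1 rose, by 1.46-fold to 3.25-fold in mean TPM. STARD3, OSBP, GRAMD1A and ORMDL1 did not pass the test. At an unadjusted p under 0.05 limma gave 1 lower gene, STARD3. Over all tested genes 4.9% were higher and 3.72% lower in LB amiodarone than in LB DMSO, 1204 genes (8.62%) together, and 630 to 745 genes when any LB DMSO library or LB amiodarone replicate 2 or 3 was left out. Without A549 DMSO replicate 2, which enters only through the shared spread, 1493 genes passed. The median log2 difference was 0.69 over the 10 genes and -0.003 over all tested genes.

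HPbCD added to amiodarone raised 2 of the 10 genes further and lowered none. NPC1 rose 1.89-fold and NPC2 1.25-fold, while the other 8 genes did not pass the test. At an unadjusted p under 0.05 limma gave 2 lower genes, LIPA and GRAMD1A. The call of NPC2 was lost when LB amiodarone replicate 1 or 3 or any of the 3 LB amiodarone plus HPbCD libraries was left out (adjusted p 0.0524 to 0.0668 in limma), which left 1 gene. Over all tested genes 2.71% were higher and 1.36% lower, 568 genes (4.07%) together, and 282 to 341 without any one library of these 2 groups. Without A549 DMSO replicate 2, 827 genes passed. Against LB DMSO, amiodarone plus HPbCD left 6 genes higher and 1 lower, where 10.1% of all tested genes were higher and 7.81% lower (17.9% together). The 6 were NPC1 (3.95-fold in mean TPM), STARD4 (2.99-fold), NPC2 (2.42-fold), TMEM97 (1.86-fold), LIPA (1.58-fold) and SCARB1 (1.39-fold), and the lower one was GRAMD1A. The median log2 difference of the 10 genes was -0.05 for HPbCD added to amiodarone and 0.57 for the combination against LB DMSO, beside -0.01 and -0.02 over all tested genes. The comparisons of amiodarone with vehicle and of the combination with amiodarone share the LB amiodarone libraries, so their values are given side by side. In the plot of differences, the 6 genes that rose with amiodarone lie to the right of 0 in the first panel, and only NPC1 and NPC2 do so past the test in the second.

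**Figure D1:**
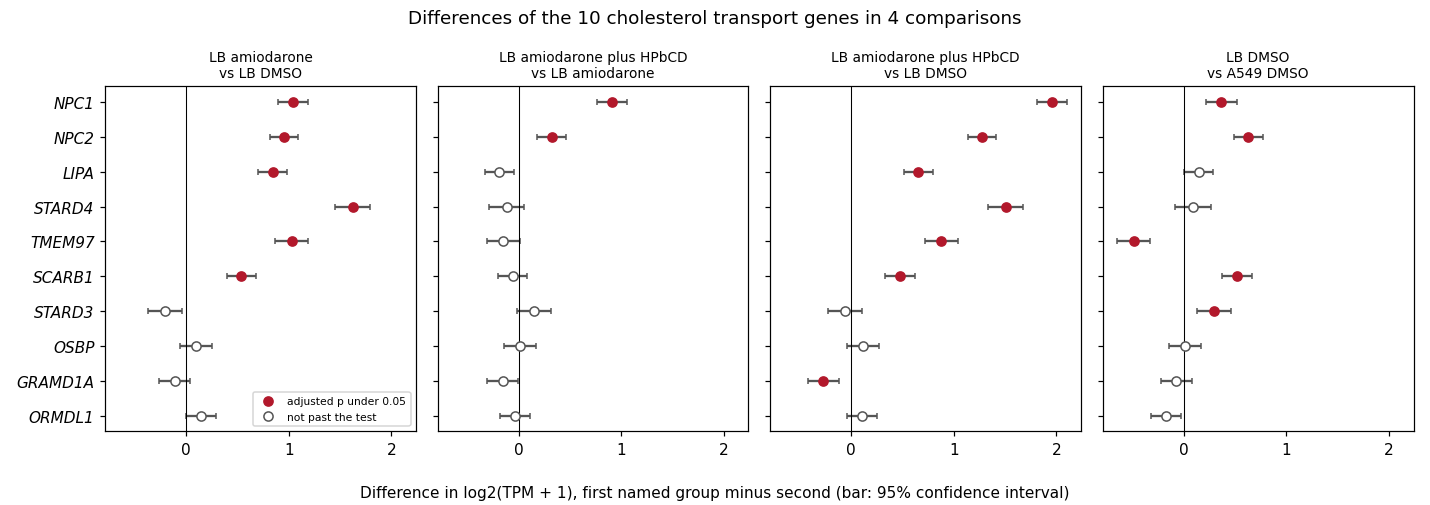
Differences of the 10 genes in log2(TPM + 1), first named group minus second, in 4 comparisons of 3 libraries against 3. Points are limma estimates, bars are 95% confidence intervals, and filled points have an adjusted p under 0.05. STARD4 has a log2 difference of 1.62 for amiodarone against LB DMSO, and NPC1 one of 0.91 for the combination against amiodarone.

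Promoter sequences are shown for 4 genes that span the patterns above: NPC1, raised by amiodarone and again with HPbCD, STARD4 and TMEM97, raised by amiodarone, and OSBP, past the test in no comparison. Each runs from 250 bases before to 50 after a RefSeq start site (GRCh38.p14), 5′ to 3′, with every CCAAT motif on either strand in capitals. CCAAT is the motif of NF-Y, a factor known to act beside SREBP2. The windows are chr18:23586457-23586756, minus strand for NPC1, chr5:111512486-111512785, minus strand for STARD4, chr17:28318950-28319249, plus strand for TMEM97 and chr11:59615725-59616024, minus strand for OSBP.
NPC1: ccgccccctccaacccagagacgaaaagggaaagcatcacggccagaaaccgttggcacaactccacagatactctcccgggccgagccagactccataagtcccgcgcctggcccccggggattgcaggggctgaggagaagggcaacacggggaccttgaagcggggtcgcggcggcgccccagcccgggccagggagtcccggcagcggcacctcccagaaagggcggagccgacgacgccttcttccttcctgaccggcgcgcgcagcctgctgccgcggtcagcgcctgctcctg
STARD4: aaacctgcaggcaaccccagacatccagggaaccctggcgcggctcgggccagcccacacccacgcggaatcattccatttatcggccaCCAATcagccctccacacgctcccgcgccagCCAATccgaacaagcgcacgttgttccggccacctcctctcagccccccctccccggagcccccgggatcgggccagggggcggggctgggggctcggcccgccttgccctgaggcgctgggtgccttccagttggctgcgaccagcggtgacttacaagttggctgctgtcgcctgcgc
TMEM97: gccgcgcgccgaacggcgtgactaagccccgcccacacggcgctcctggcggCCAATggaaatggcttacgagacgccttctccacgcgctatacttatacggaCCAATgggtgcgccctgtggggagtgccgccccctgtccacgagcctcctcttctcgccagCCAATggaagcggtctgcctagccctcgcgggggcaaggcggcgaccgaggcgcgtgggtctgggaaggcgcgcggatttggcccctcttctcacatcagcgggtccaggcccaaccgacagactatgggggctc
OSBP: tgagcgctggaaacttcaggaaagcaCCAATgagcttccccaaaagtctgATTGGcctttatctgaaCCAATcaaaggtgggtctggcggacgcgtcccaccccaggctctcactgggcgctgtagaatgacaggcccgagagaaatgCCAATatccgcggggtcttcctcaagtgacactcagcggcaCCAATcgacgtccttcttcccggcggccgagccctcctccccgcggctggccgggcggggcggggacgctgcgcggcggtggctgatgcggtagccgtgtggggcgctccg
No CCAAT lies in the NPC1 window, 2 lie in that of STARD4, 3 in that of TMEM97 and 5 in that of OSBP. The motif was present in 34.6% of all 35116 RefSeq promoter windows of this length, and at least 3 copies in 3.26%. RefSeq windows were found for 9 of the 10 genes, 14 windows in all, of which 7 held the motif. A form of the sterol regulatory element (TCACNCCAC, either strand, in 1.13% of all windows) and the E-box CACGTG (in 7.26%), a core of lysosomal gene promoters, were in none of the 14 windows. These matches describe letters in short windows and show nothing about binding.

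NPC1 (chromosome 18, 23506184 to 23586898, minus strand), the lysosomal cholesterol exporter, was read at 166, 164 and 154 TPM in LB amiodarone plus HPbCD and at 89.3, 81.6 and 85.5 TPM in LB amiodarone. The LB DMSO libraries held 42.0, 41.0 and 39.8 TPM and the A549 DMSO libraries 33.9, 32.7 and 28.1 TPM. The 4 groups did not overlap anywhere, and each group lay wholly above the next. The log2 difference was 1.04 ± 0.068 for amiodarone against LB DMSO (limma adjusted p = 1.01e-06). It was 0.91 ± 0.068 for amiodarone plus HPbCD against amiodarone (limma adjusted p = 1.37e-05), and the mean with HPbCD was 3.95 times that of LB DMSO. NPC1 was the 95th highest rise of all tested genes with amiodarone and the 105th with HPbCD added.

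NPC2 (chromosome 14, 74476192 to 74494177, minus strand), the soluble partner of NPC1, had the highest level of the 10 genes in every LB group. It was read at 513, 525 and 515 TPM in LB amiodarone plus HPbCD and at 414, 427 and 402 TPM in LB amiodarone. The LB DMSO libraries held 220, 221 and 199 TPM and the A549 DMSO libraries 127, 153 and 133 TPM. Here too every group lay wholly above the next. The log2 difference was 0.95 ± 0.064 for amiodarone against LB DMSO (limma adjusted p = 1.36e-06) and 0.32 ± 0.064 for amiodarone plus HPbCD against amiodarone (limma adjusted p = 0.0154). The NPC2 to NPC1 ratio in TPM was 3.09 to 3.34 in LB amiodarone plus HPbCD, 4.63 to 5.24 in LB amiodarone, 5.01 to 5.41 in LB DMSO and 3.75 to 4.73 in A549 DMSO. The ratio was lower in all 3 HPbCD libraries than in any other library, a difference that was not tested.

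LIPA (chromosome 10, 89213569 to 89414557, minus strand), the lysosomal acid lipase, was read at 99.3, 97.9 and 94.9 TPM in LB amiodarone plus HPbCD and at 105, 117 and 112 TPM in LB amiodarone. The LB DMSO libraries held 59.5, 60.2 and 64.8 TPM and the A549 DMSO libraries 53.3, 52.4 and 61.2 TPM. Every amiodarone library, with or without HPbCD, lay above every vehicle library. The rise with amiodarone was 0.84 ± 0.066 on the log2 scale (limma adjusted p = 5.55e-06). With HPbCD added, LIPA averaged 97.4 ± 2.27 TPM, against 111 ± 6.06 TPM in LB amiodarone, and although the groups did not overlap the difference of -0.19 did not pass (limma adjusted p = 0.149, 95% interval -0.33 to -0.05). In GENCODE 29 the span of LIPA also holds IFIT1, IFIT2 and IFIT3 on the opposite strand. IFIT1 averaged 66.2 ± 11.5 TPM in LB amiodarone plus HPbCD, 14.0 ± 1.72 TPM in LB amiodarone, 4.96 ± 0.632 TPM in LB DMSO and 2.23 ± 0.536 TPM in A549 DMSO. The library kit keeps strand, but whether the authors' counting used it was not given in the sources used here, and the part of these genes in the LIPA values was not tested. The same holds for the opposite-strand neighbours that overlap NPC1 (RMC1, 15.3 to 21.1 TPM over the libraries), NPC2 (ISCA2, 46.9 to 58.2 TPM), TMEM97 (IFT20, 45.3 to 56.3 TPM) and ORMDL1 (PMS1, 5.92 to 9.42 TPM).

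STARD3 (chromosome 17, 39637065 to 39663484, plus strand), the late endosomal member of the START family, stayed between 47.3 and 64.7 TPM over the 12 libraries. It averaged 60.2 ± 2.55 TPM in LB amiodarone plus HPbCD, 54.2 ± 5.13 TPM in LB amiodarone, 62.7 ± 2.28 TPM in LB DMSO and 50.9 ± 4.37 TPM in A549 DMSO. The LB amiodarone libraries lay below all LB DMSO libraries, but the difference of -0.21 ± 0.076 did not pass (limma adjusted p = 0.113). Without LB amiodarone replicate 1, which held 60.1 TPM against 51.7 and 50.8 TPM in the other two, the difference was -0.29 and passed (limma adjusted p = 0.0434).

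**Figure D2:**
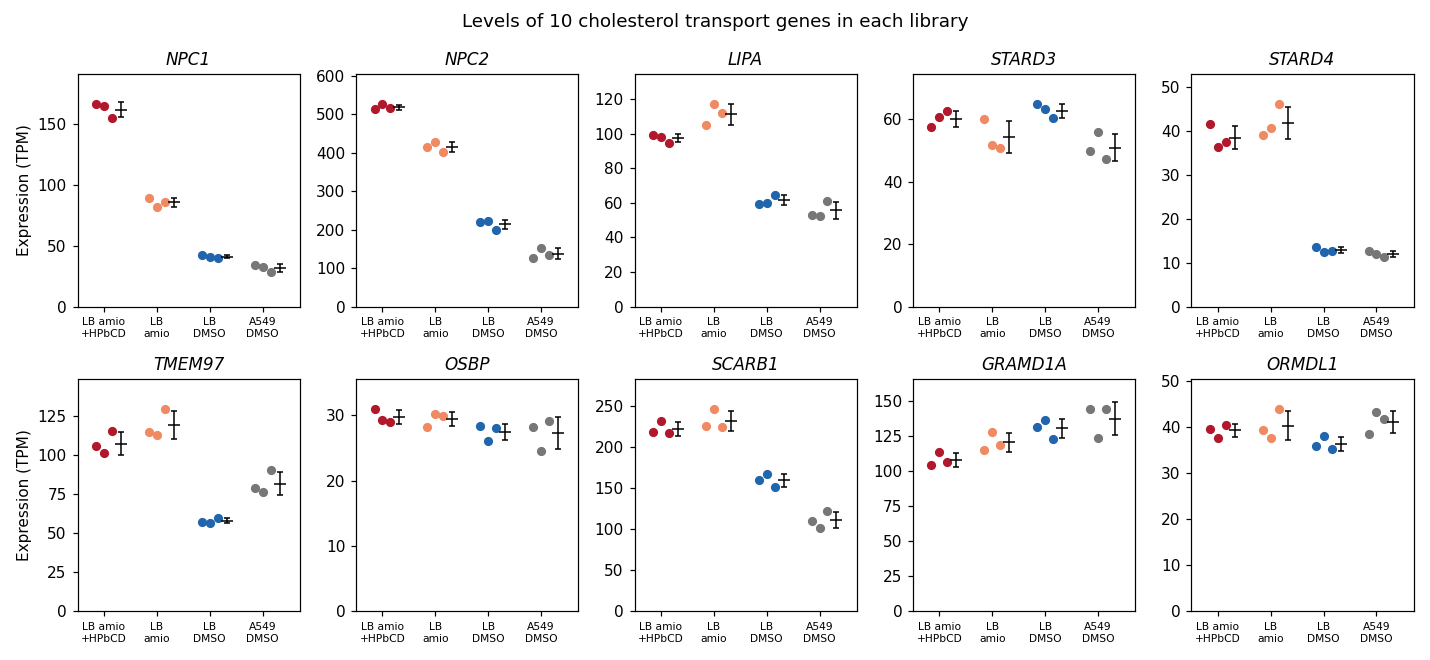
TPM of the 10 genes in each of the 12 libraries, 1 panel per gene, with each vertical axis starting at 0. Points are libraries and the black bars beside them are the mean ± SD of 3. NPC1 averages 161 TPM with HPbCD and 85.5 TPM without it, whereas STARD4 stands at 38.5 and 41.9 TPM in the amiodarone groups with and without HPbCD, against 12.9 TPM in LB DMSO.

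STARD4 (chromosome 5, 111496033 to 111512590, minus strand), the soluble sterol carrier, was read at 41.6, 36.5 and 37.6 TPM in LB amiodarone plus HPbCD and at 39.0, 40.7 and 46.1 TPM in LB amiodarone. The LB DMSO libraries held 13.7, 12.4 and 12.6 TPM and the A549 DMSO libraries 12.7, 12.1 and 11.4 TPM. All 6 amiodarone libraries lay far above all 6 vehicle libraries, and the amiodarone groups with and without HPbCD overlapped. The rise with amiodarone was 3.25-fold in mean TPM and 1.62 ± 0.079 on the log2 scale (limma adjusted p = 6.89e-08), the 26th highest of all tested genes. Adding HPbCD gave a difference of -0.12 that did not pass (limma adjusted p = 0.485, 95% interval -0.29 to 0.05). The antisense gene STARD4-AS1 overlaps STARD4 and stayed at or below 1.07 TPM.

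TMEM97 (chromosome 17, 28319095 to 28328685, plus strand) was read at 106, 101 and 115 TPM in LB amiodarone plus HPbCD and at 115, 113 and 130 TPM in LB amiodarone. The LB DMSO libraries held 57.4, 56.6 and 59.6 TPM and the A549 DMSO libraries 78.8, 76.1 and 90.4 TPM. TMEM97 was the only one of the 10 genes past the test and lower in LB DMSO than in A549 DMSO, and the amiodarone libraries lay above both vehicle groups. The log2 difference was 1.03 ± 0.075 for amiodarone against LB DMSO (limma adjusted p = 3.05e-06) and -0.49 ± 0.075 for LB DMSO against A549 DMSO (limma adjusted p = 0.000307). Adding HPbCD gave -0.15, which did not pass (limma adjusted p = 0.325, 95% interval -0.31 to 0.01).

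SCARB1 (chromosome 12, 124776856 to 124882668, minus strand) was read at 218, 232 and 216 TPM in LB amiodarone plus HPbCD and at 225, 246 and 224 TPM in LB amiodarone. The LB DMSO libraries held 159, 167 and 151 TPM and the A549 DMSO libraries 110, 101 and 121 TPM. The amiodarone groups overlapped, and both lay above LB DMSO, which lay above A549 DMSO. The rise with amiodarone was 0.54 ± 0.066 on the log2 scale (limma adjusted p = 0.000341), close in size to the 0.52 ± 0.066 of LB DMSO over A549 DMSO (limma adjusted p = 7.67e-05). Adding HPbCD gave -0.06 (limma adjusted p = 0.705, 95% interval -0.20 to 0.08).

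OSBP, GRAMD1A and ORMDL1 passed the test in at most 1 of the 4 comparisons. OSBP (chromosome 11, 59574398 to 59616144, minus strand) stayed between 24.5 and 31.0 TPM over the 12 libraries and passed in no comparison. OSBP averaged 29.7 ± 1.1 TPM in LB amiodarone plus HPbCD, 29.4 ± 1.12 TPM in LB amiodarone, 27.5 ± 1.27 TPM in LB DMSO and 27.3 ± 2.50 TPM in A549 DMSO. Its log2 difference for amiodarone against LB DMSO was 0.10 with a 95% interval of -0.06 to 0.25. GRAMD1A (chromosome 19, 34994784 to 35026471, plus strand) averaged 108 ± 4.96 TPM in LB amiodarone plus HPbCD, 120 ± 6.72 TPM in LB amiodarone, 130 ± 6.93 TPM in LB DMSO and 137 ± 11.7 TPM in A549 DMSO. It fell in amiodarone plus HPbCD against LB DMSO, by 0.27 ± 0.069 on the log2 scale (limma adjusted p = 0.0171). With all 12 libraries this was the only fall past the test among the 10 genes under drug. The call was lost on leaving out LB DMSO replicate 1 or 2, or LB amiodarone plus HPbCD replicate 1 or 3 (limma adjusted p 0.0559 to 0.0689). ORMDL1 (chromosome 2, 189770323 to 189784371, minus strand) stayed between 35.2 and 43.9 TPM. It averaged 39.3 ± 1.46 TPM in LB amiodarone plus HPbCD and 40.3 ± 3.23 TPM in LB amiodarone. It averaged 36.4 ± 1.53 TPM in LB DMSO and 41.2 ± 2.39 TPM in A549 DMSO, a difference of -0.17 that did not pass (limma adjusted p = 0.0732) but passed without A549 DMSO replicate 1 (limma adjusted p = 0.0444) or LB amiodarone replicate 3 (limma adjusted p = 0.0494).

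Without drug, 4 of the 10 genes were higher in LB cells than in A549 cells and 1 was lower, where 32.4% of all tested genes passed in either direction. NPC2 rose most, to 214 ± 12.3 TPM in LB DMSO against 138 ± 13.5 TPM in A549 DMSO (log2 difference 0.63 ± 0.064, limma adjusted p = 1.12e-05). NPC1 was 0.37 ± 0.068 higher (limma adjusted p = 0.00119) and STARD3 0.30 ± 0.076 higher (limma adjusted p = 0.00958). STARD4 differed by 0.09 and did not pass (limma adjusted p = 0.419, 95% interval -0.08 to 0.26), and its level was the lowest of the 10 genes in both vehicle groups. LIPA did not pass (limma adjusted p = 0.112) but did without A549 DMSO replicate 3 (log2 difference 0.22, limma adjusted p = 0.0169).

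TPM is a level per length, so the 10 genes can be ordered. In LB amiodarone plus HPbCD the order ran NPC2, SCARB1, NPC1, GRAMD1A, TMEM97, LIPA, STARD3, ORMDL1, STARD4 and OSBP. GRAMD1A and TMEM97 overlapped there, as did ORMDL1 and STARD4. In A549 DMSO it ran NPC2, GRAMD1A, SCARB1, TMEM97, LIPA, STARD3, ORMDL1, NPC1, OSBP and STARD4. There NPC2 and GRAMD1A overlapped, as did LIPA and STARD3, and NPC1 and OSBP. NPC1 stood 3rd of 10 in LB amiodarone plus HPbCD, 6th in LB amiodarone, 7th in LB DMSO and 8th in A549 DMSO.

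Lists of related genes were counted beside the shares over all genes given above. They were drawn from textbook knowledge but chosen with earlier results of these data known, so the counts are descriptive only. Amiodarone raised 4 of 30 other sterol transfer genes tested, with a median log2 difference of 0.14, and 26 did not pass. The count was 9 with A549 DMSO replicate 2 left out, where 1493 of all tested genes passed. It was 2 with LB DMSO replicate 2 or 3 or LB amiodarone replicate 1 or 3 left out. LAMP2, a lysosomal membrane protein that binds cholesterol, rose to 149 ± 3.34 TPM in LB amiodarone, against 107 ± 1.19 TPM in LB DMSO (limma adjusted p = 1.1e-05). RAB7A, the late endosomal GTPase, averaged 195 ± 5.00 TPM in LB amiodarone and 158 ± 3.29 TPM in LB DMSO (limma adjusted p = 0.00135). Of 7 other START domain genes tested, 0 passed in limma, with 1 higher and 1 lower at an unadjusted p under 0.05, and 1 rose when LB amiodarone replicate 1 was left out. Of 6 ORMDL and serine palmitoyltransferase genes tested, 0 passed, and 0 had an unadjusted p under 0.05 in limma. GRAMD1B, the relative of GRAMD1A named here for its family, averaged 73.9 ± 5.71 TPM in LB amiodarone and 84.9 ± 6.49 TPM in LB DMSO and did not pass (limma adjusted p = 0.132).

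The list of SREBP2 targets in synthesis and uptake had the highest median of the 6 lists under amiodarone. Amiodarone raised 21 of the 22, with a median log2 difference of 1.69, the exception being PMVK. MSMO1, a sterol demethylation enzyme, rose most, to 142 ± 15.9 TPM in LB amiodarone against 26.3 ± 0.0987 TPM in LB DMSO (limma adjusted p = 4.03e-09). With HPbCD added, 8 of the 22 fell and 14 did not pass, with a median of -0.19. FDPS, which makes farnesyl diphosphate, averaged 943 ± 16.7 TPM in LB amiodarone plus HPbCD and 1348 ± 65.6 TPM in LB amiodarone (limma adjusted p = 4.75e-05). STARD4, TMEM97 and SCARB1 had differences between -0.15 and -0.06 in that comparison, and none of them passed.

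Of 26 lysosomal genes, 17 rose with amiodarone, with a median log2 difference of 0.32. With HPbCD added, 6 of the 26 rose and 1 fell, with a median of 0.14. Of these 6, the cathepsin CTSB had not passed under amiodarone alone (log2 difference -0.14, limma adjusted p = 0.225). Its LB amiodarone values all lay below its LB DMSO values. The other 5 had risen under amiodarone alone too. The sialidase NEU1 rose to 214 ± 3.06 TPM in LB amiodarone, against 64.8 ± 2.23 TPM in LB DMSO (limma adjusted p = 5.88e-10). The cathepsin CTSL averaged 1824 ± 52.8 TPM in LB amiodarone plus HPbCD and 1154 ± 53.8 TPM in LB amiodarone (limma adjusted p = 3.61e-05). The gene that fell was TFEB, a regulator of lysosomal genes, at 1.96 ± 0.304 TPM with HPbCD against 3.99 ± 1.19 TPM without (limma adjusted p = 0.0311). Its call was lost without LB DMSO replicate 2, LB amiodarone replicate 2 or 3 or any LB amiodarone plus HPbCD library (limma adjusted p up to 0.129). Against LB amiodarone, HPbCD also raised COL4A3BP, the ceramide carrier of the START family, to 24.1 ± 1.19 TPM against 16.8 ± 1.56 TPM (limma adjusted p = 0.00306), the only one of 7 in its list to pass. RAB7A was the single gene of 30 other sterol transfer genes that rose, to 232 ± 5.40 TPM against 195 ± 5.00 TPM (limma adjusted p = 0.00843), and 2 fell. The count of genes that rose was 2 without A549 DMSO replicate 2 and 2 with the filter at 5 TPM. The fall of SCP2, a sterol carrier protein, was lost on leaving out any LB library (limma adjusted p up to 0.149), and that of OSBPL6 on leaving out any but LB amiodarone replicate 2 (limma adjusted p up to 0.14). Among 9 targets of LXR, the receptor that senses oxysterols, 1 fell with amiodarone, the exporter ABCG1, at 1.09 ± 0.303 TPM in LB amiodarone against 3.34 ± 0.746 TPM in LB DMSO (limma adjusted p = 0.00561). The count that fell was 2 with LB amiodarone plus HPbCD replicate 3 left out and 3 under quantile normalization. It was 0 with the filter at 5 TPM, where ABCG1, at a mean of 2.4 TPM over the 12 libraries, was not tested. The fall of ABCG1 passed on leaving out any 1 library (limma adjusted p 0.0051 to 0.0304). Without A549 DMSO replicate 2, or in a fit of only the 2 groups compared, 1 target rose. With HPbCD added, 1 of the 9 rose, the cholesterol exporter ABCA1, at 7.04 ± 1.52 TPM in LB amiodarone plus HPbCD against 4.15 ± 0.791 TPM in LB amiodarone (limma adjusted p = 0.0404). That call was lost on leaving out any library other than A549 DMSO replicate 2 or 3 or LB amiodarone plus HPbCD replicate 3 (limma adjusted p up to 0.162). 1 target fell there on leaving out A549 DMSO replicate 2 or 3.

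In LB DMSO against A549 DMSO, 20 of the 26 lysosomal genes were higher, with a median log2 difference of 0.41, where 14.2% of all tested genes were higher and 18.2% lower. Of the 22 SREBP2 targets 13 were higher and 2 lower (1 lower without LB DMSO replicate 1), with a median of 0.27. Of the 30 other sterol transfer genes 11 were higher and 6 lower, with a median of 0.005. OSBP2, the closest relative of OSBP, averaged 7.31 ± 0.826 TPM in LB DMSO and 24.3 ± 5.61 TPM in A549 DMSO (limma adjusted p = 7.58e-06), whereas OSBP itself differed by 0.01 and did not pass (limma adjusted p = 0.927). GRAMD1B averaged 84.9 ± 6.49 TPM in LB DMSO and 51.6 ± 3.15 TPM in A549 DMSO (limma adjusted p = 1.57e-05), whereas GRAMD1A differed by -0.07 (limma adjusted p = 0.469).

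**Figure D3:**
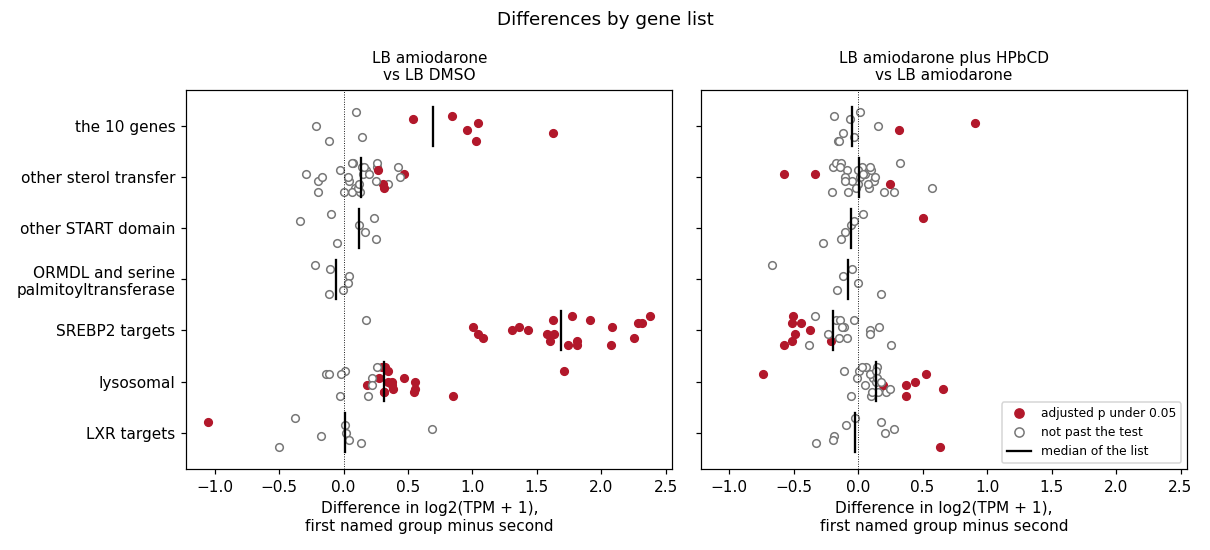
Differences in log2(TPM + 1) of every tested gene of 7 lists, for amiodarone against LB DMSO and for the combination against amiodarone. Each point is a gene, filled where the adjusted p is under 0.05, its height within a list is for legibility only, and the vertical bar is the list's median. The SREBP2 targets have a median of 1.69 on the left and -0.19 on the right.

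Genes with the most similar pattern were sought among 9879 genes averaging 5 TPM or more, by Pearson correlation over the 12 libraries, which form 4 groups and share their group steps. For STARD4 these included CYP51A1 (r = 0.995) and EBP (0.992), both enzymes of cholesterol synthesis. For LIPA they were FDFT1 (0.991), MVK (0.991) and MVD (0.989), enzymes of the same pathway. For NPC1 they were the lipid droplet coat PLIN2 (0.992), the protease inhibitor CSTB (0.991) and the interferon-stimulated gene IFIT3 (0.990). PLIN2 averaged 173 TPM in LB amiodarone plus HPbCD, 89.3 TPM in LB amiodarone, 43.3 TPM in LB DMSO and 26.9 TPM in A549 DMSO. For NPC2 they were DDIT3, MICA and GNPDA1 (0.995, 0.995 and 0.994), and for SCARB1 they included OSGIN2 (0.994) and DNASE2 (0.991). TMEM97 had weaker matches, among them DBI at 0.957 and DAZAP2 at 0.9525. Among the 10 genes themselves the highest correlation was 0.972 between LIPA and STARD4, followed by 0.962 between NPC1 and NPC2. The lowest was -0.873, between NPC1 and GRAMD1A.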

How the data were processed

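The authors deposited TPM values, 1 per gene symbol and library, made with STAR 2.7.3a and RSEM 1.3.1 on GRCh38 per the submitters' processing notes (annotation: not given in the sources used here). Shared reads are divided between genes by estimation in RSEM, and TPM keeps no depth, so no count model was used. Of 57189 rows, 37 held no value. Genes averaging 1 TPM or more were tested on log2(TPM + 1), which understates changes of low genes, with limma 3.58.1 in R 4.3.3. The model held all 4 groups (8 residual degrees of freedom) and a mean-variance trend. Tests were two-sided, with Benjamini-Hochberg adjustment within each of 4 comparisons, and the fit was tested on simulated data. Positions are from GENCODE 29. Members and lists were chosen with earlier results of these data known. Named were the members, per list and comparison up to 4 genes with the largest difference past the test in groups that did not overlap, and the 3 genes most correlated with each member past the test in at least 2 comparisons. Some genes that this rule names are not reported here. GRAMD1B was named outside this rule, after its values were seen. Alternatives changed the pseudocount (0.1 or 5), the filter (none or 5 TPM), the scaling (median of ratios or quantiles), the trend, the groups fitted and the replicate block, or left out 1 library.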

Additional observations from a re-analysis of the deposited data

How the results depend on the processing

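The number of the 10 genes past the test was 5 for LB DMSO against A549 DMSO, 6 for amiodarone against LB DMSO, 2 for amiodarone plus HPbCD against amiodarone and 7 for the combination against LB DMSO. Leaving out single libraries gave 5 to 6, 6 to 7, 1 to 2 and 6 to 7 in that order. With the replicate number as a block the counts were 5, 6, 2 and 7, and the block changed no call among the 10 genes. In the wider lists the block gave 3 other sterol transfer genes higher (1 without it) and 1 lower (2 without it) with HPbCD added, and with amiodarone 1 lower (0 without it) and 2 LXR targets lower (1 without it). The labels state no pairing, so the numbers were not taken to pair the samples. Same-numbered libraries deviated together with correlations of -0.027 to 0.212. In each comparison 2 or 3 of 3 samples correlated best with their own number, more than random matching gives on average. Whether same-numbered libraries shared a batch was not tested. Over the 40 differences and 21 alternatives, 818 kept direction and side of the threshold, 9 lost the call, 6 gained it and 7 changed sign. The sign changes were in OSBP and ORMDL1, never past the test. OSBP in LB DMSO against A549 DMSO ran from -0.063 (A549 DMSO replicate 2 left out) to 0.059 as libraries were left out in turn, with -0.012 and -0.0036 on leaving out LB DMSO replicate 1 or 3. OSBP in the combination against amiodarone was -0.0042 under quantile normalization and ran from -0.016 (LB amiodarone replicate 1 left out) to 0.033, with -0.015 on leaving out replicate 1 of the combination. ORMDL1 there ran from -0.081 to 0.027, the highest with LB amiodarone replicate 3 left out. LIPA in LB DMSO against A549 DMSO passed under median-of-ratios scaling (0.18, limma adjusted p = 0.0497) and quantile normalization (0.18, limma adjusted p = 0.0399). The cause of these changes was not tested. NPC1 passed in all 4 comparisons under every alternative. Over all genes, amiodarone gave 1204 calls and 630 to 745 without LB DMSO replicate 1, 2 or 3 or LB amiodarone replicate 2 or 3, and adding HPbCD gave 568 calls and 282 to 341 without any library of its 2 groups. Leaving out A549 DMSO replicate 2, a library of neither comparison, gave 1493 calls for amiodarone and 827 for adding HPbCD. TPM hides depth, so the precision of low values is unknown.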
